A study of Arabidopsis thaliana with 18 samples.

Results

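The type-A *ARABIDOPSIS RESPONSE REGULATORs* (type-A *ARRs*) were examined as a family, with the 10 members *ARR3* to *ARR9* and *ARR15* to *ARR17* chosen by their locus identifiers among the 28278 genes counted. All 10 were present in the table and 8 of them passed the filter on low counts, which kept 19383 genes. RNA-seq was performed on whole 4 d-old *Arabidopsis thaliana* seedlings of Wt (the Col-0 wild type) and of the mutants *aff1-1* and *aff1-3*. Seedlings were kept for 2 h in liquid PN medium containing either solvent (ethanol, mock) or IAA, the main natural auxin, at 10 μM, and each of the 6 groups had 3 samples. All lines were in the Col-0 background and grew under continuous light. *AFF1* encodes an F-box protein that the study places upstream of the auxin-response activators ARF7 and ARF19. *aff1-1* carries a chemically induced point mutation in *AFF1*, was recovered from a single mutagenized isolate and was backcrossed to Col-0. *aff1-3* is the T-DNA insertion line Salk_083453, which the sample labels call aff1-2. One design note gives the IAA dose in mM, whereas the sample titles and the methods give μM.

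Type-A ARRs are short proteins that consist mainly of a phosphate-accepting receiver domain and lack the DNA-binding domain of the type-B ARRs. Cytokinin is perceived by membrane histidine kinases, the phosphate is relayed through histidine phosphotransfer proteins (AHPs) to the nucleus, and phosphorylated type-B ARRs then activate transcription. Type-A *ARR* genes are among the first genes that cytokinin induces in this way, and their products damp the same pathway, so that their transcripts are widely used as a readout of cytokinin signalling. Auxin and cytokinin act against each other in many tissues of the root and shoot, and in the embryonic root auxin is known to raise *ARR7* and *ARR15* transcription. The genes form sister pairs, *ARR3* with *ARR4*, *ARR5* with *ARR6*, *ARR7* with *ARR15*, *ARR8* with *ARR9*, and *ARR16* with *ARR17*.

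The upstream sequences of 4 members are shown because these genes span the range of responses described below. *ARR6* fell most with IAA in Wt and *ARR9* least, *ARR7* was lower in both mock-treated *aff1* lines, and *ARR16* was higher in IAA-treated *aff1-1*. Each run covers the 250 bases before the annotated gene start in RefSeq's TAIR10.1 assembly, read 5′ to 3′ on the strand of the gene. Capitals mark the letters AGATT and AGATC, forms of the core bound by type-B ARRs, and TGTCTC and TGTCGG, forms of the element bound by ARFs, on either strand. *ARR6* (AT5G62920) lies on the minus strand and the window is chr5:25254319-25254568. *ARR7* (AT1G19050) also lies on the minus strand, with the window at chr1:6579315-6579564. *ARR16* (AT2G40670) lies on the plus strand, with the window at chr2:16969423-16969672, as does *ARR9* (AT3G57040) with the window at chr3:21108809-21109058.
ARR6: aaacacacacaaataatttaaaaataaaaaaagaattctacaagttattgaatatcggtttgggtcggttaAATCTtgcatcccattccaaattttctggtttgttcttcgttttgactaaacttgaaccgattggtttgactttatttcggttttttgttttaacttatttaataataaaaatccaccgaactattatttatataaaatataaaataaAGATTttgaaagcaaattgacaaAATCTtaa
ARR7: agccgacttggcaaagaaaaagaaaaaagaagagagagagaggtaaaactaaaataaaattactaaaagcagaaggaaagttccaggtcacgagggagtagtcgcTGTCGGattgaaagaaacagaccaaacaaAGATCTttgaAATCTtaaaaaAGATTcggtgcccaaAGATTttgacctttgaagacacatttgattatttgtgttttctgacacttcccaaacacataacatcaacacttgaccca
ARR16: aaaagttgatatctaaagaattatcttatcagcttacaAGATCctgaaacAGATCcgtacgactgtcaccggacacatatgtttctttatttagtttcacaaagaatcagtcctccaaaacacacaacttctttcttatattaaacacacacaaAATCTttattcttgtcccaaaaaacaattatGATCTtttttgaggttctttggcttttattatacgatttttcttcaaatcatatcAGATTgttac
ARR9: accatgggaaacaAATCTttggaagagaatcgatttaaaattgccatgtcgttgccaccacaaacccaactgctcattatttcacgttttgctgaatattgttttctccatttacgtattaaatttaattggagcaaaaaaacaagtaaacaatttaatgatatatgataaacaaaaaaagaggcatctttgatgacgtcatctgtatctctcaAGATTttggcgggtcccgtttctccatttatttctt

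All 10 windows held at least 1 AGATT or AGATC on either strand, as did 73.2% of the 27443 windows of the same length in the genome. *ARR7* and *ARR16* each held 5 such matches, a number reached by 2.52% of all windows, and *ARR6* held 3, a number reached by 18.3%. In *ARR7* a palindromic stretch was counted on both strands, so that 2 of its 5 matches share bases. *ARR5* and *ARR9* had 2 matches and the remaining members 1 each. An auxin-type element was found in 2 members, TGTCTC in *ARR3* (10.9% of all windows) and TGTCGG in *ARR7* (4.16%). These are matches of letters only, and a relation between their number and the response to IAA was not tested.

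**Figure D1:**
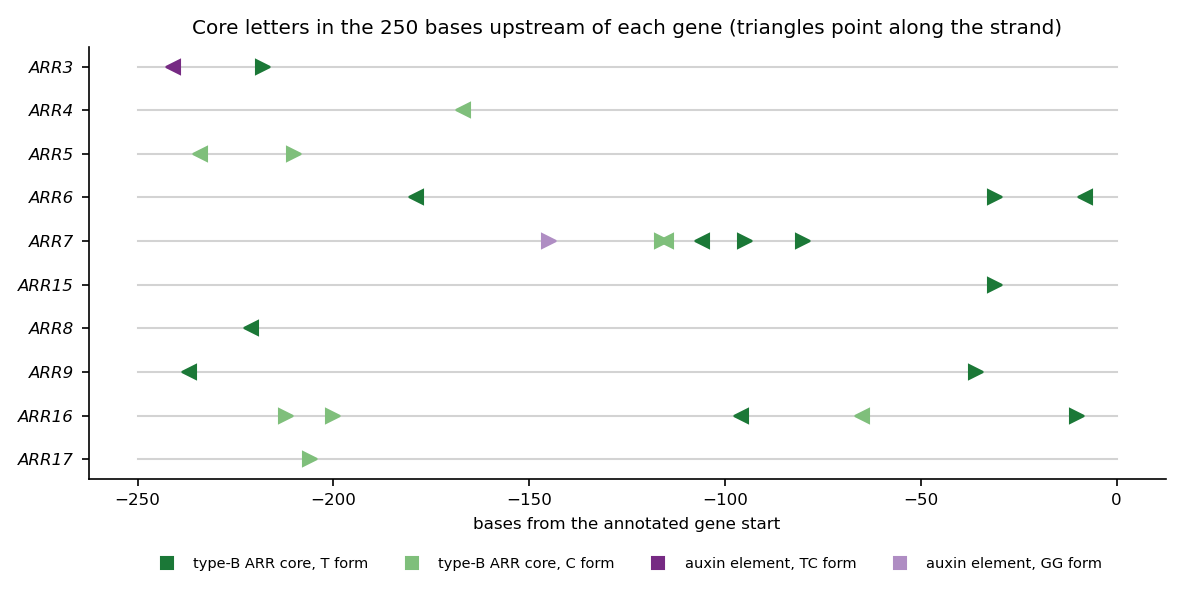
Positions of the searched letters in the 250 bases upstream of each of the 10 type-A *ARR* genes. The x axis shows bases from the annotated gene start, each line is a gene, and triangles point along the strand of the match. Green triangles are type-B ARR cores (AGATT dark, AGATC light) and purple triangles auxin elements (TGTCTC dark, TGTCGG light), and *ARR7* and *ARR16* carry 5 green matches each.

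Depth ranged from 12610301 to 36102396 counted reads per sample, and Spearman correlations within groups were at least 0.981. A pair of libraries stood apart from the others of their group. For mock replicate 2 of *aff1-3*, the chi-square per gene against the other 2 replicates was 35.5 and 36.3, while these differed by 10.9. For IAA replicate 2 of Wt it was 23.4 and 29.5, against 3.86 between the other 2. Several results that rest on them are also given without them. Counts of *AFF1* itself were low, with 1 to 9 in Wt, at most 3 in *aff1-1* and 46 to 144 in *aff1-3*, so that these counts set *aff1-3* apart but show no loss of transcript in the insertion line. The position of the reads within *AFF1* cannot be read from gene counts. Both shoot and root genes were present in every sample. The summed level of 12 root genes was 3400 to 4530 CPM (read counts scaled to library size) in mock-treated Wt, 2700 to 2990 in *aff1-1* and 2120 to 2610 in *aff1-3*, with none of the 12 at 0 in any group. The sum of 8 photosynthesis genes was 81300 to 92700 CPM in mock-treated Wt and 77300 to 81300 in IAA-treated Wt. With mock it was 83200 to 96400 CPM in *aff1-1* and 89100 to 99400 CPM in *aff1-3*. In whole seedlings, fewer cells of a type and less RNA per cell cannot be told apart.

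To compare the members with each other, their levels were expressed as RPKM, which divides CPM by exon length, in mock-treated Wt. *ARR4*, whose product binds the photoreceptor phytochrome B, had the highest level with 44.0 RPKM (range 42.0 to 47.3). *ARR9* followed with 17.4 RPKM (16.1 to 18.4). *ARR6*, *ARR8*, *ARR7* and *ARR5*, with means of 12.7 to 13.8 RPKM, did not differ beyond the overlap of their samples. *ARR3* with 9.27 RPKM and *ARR16* with 8.41 RPKM overlapped each other and had lower means than these 4, although the highest *ARR3* sample (11 RPKM) reached the lowest of *ARR7* (10.9 RPKM). *ARR15* and *ARR17* were far lower, at 0.75 and 0.0452 RPKM. With IAA the order in Wt changed below the first 2 places, since *ARR6* moved from the third to the eighth place with 2.76 RPKM and *ARR8* to the third with 8.96 RPKM. *ARR6* was also in the eighth place in both mock-treated mutants, at 7.59 RPKM in *aff1-1* and 6.49 RPKM in *aff1-3*.

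The summed level of the 10 members was 227 to 256 CPM in the 3 mock-treated Wt samples and 118 to 124 CPM in the 3 IAA-treated ones. In *aff1-1* it was 186 to 210 CPM with mock and 119 to 128 CPM with IAA. In *aff1-3* the sums were 168 to 195 CPM and 109 to 127 CPM, the lowest mock sum being that of replicate 2 and the others 192 and 195 CPM. The mock-treated mutants thus lay below mock-treated Wt without overlap, whereas the IAA-treated groups of the 3 genotypes overlapped. *ARR4* alone supplied 37.0% to 42.8% of the sum in every sample.

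**Figure D2:**
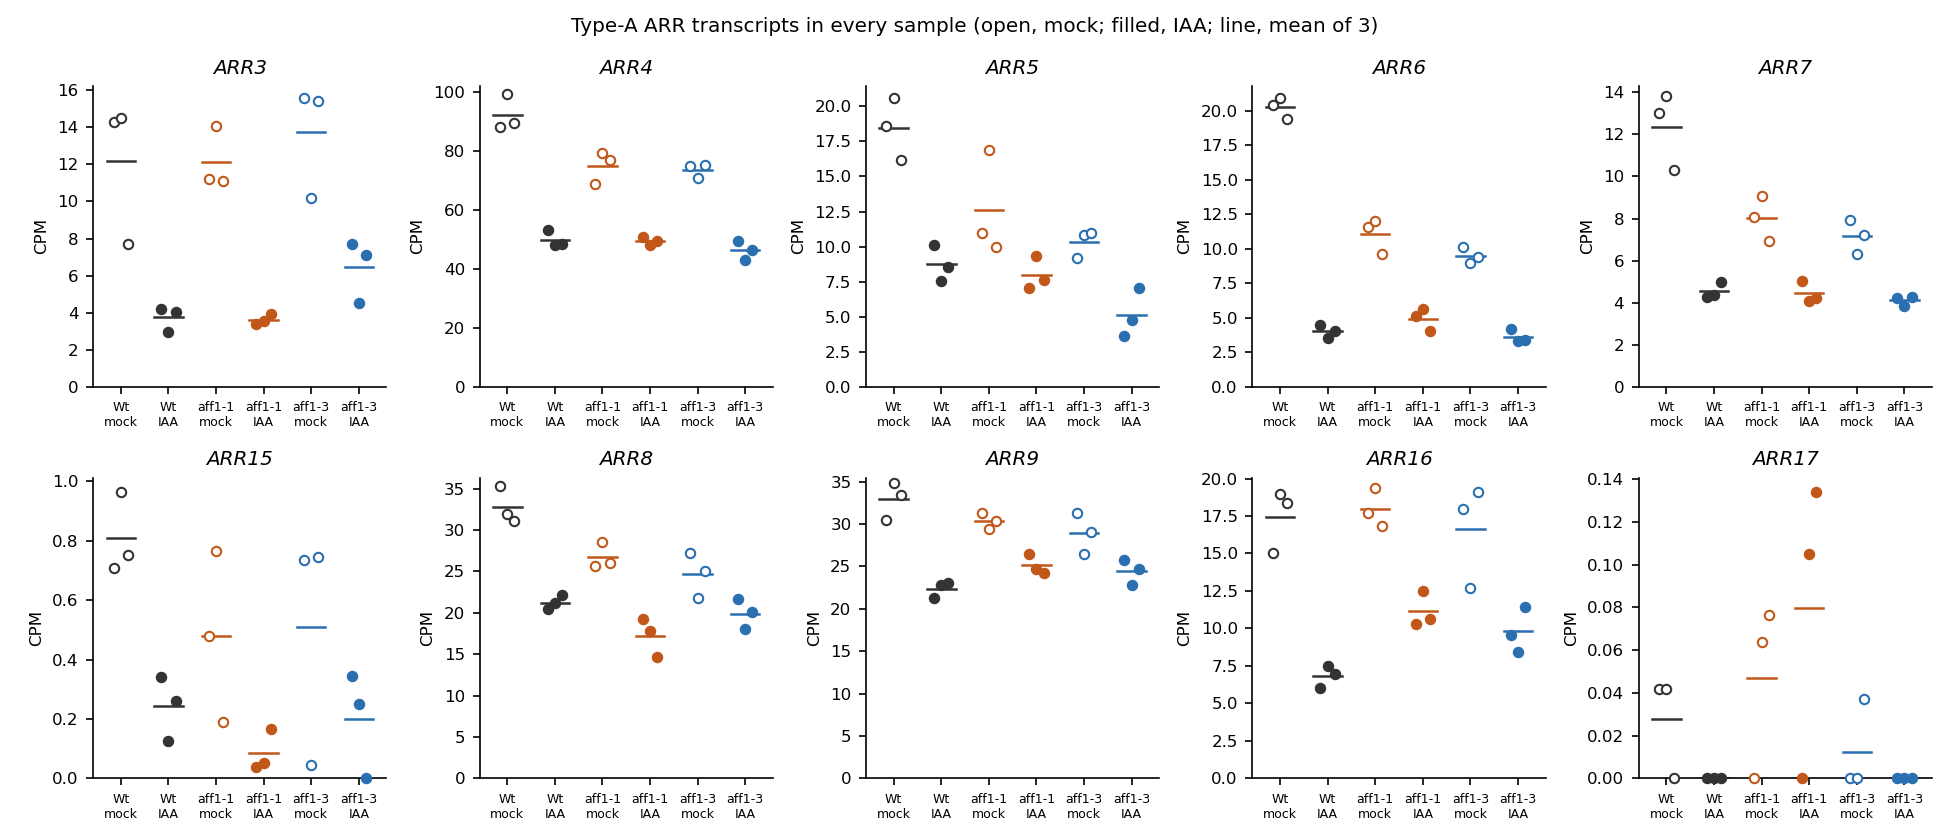
Levels of the 10 type-A *ARR* transcripts in all 18 samples. The y axis is CPM on TMM-scaled library sizes and starts at 0, each point is a sample (open, mock; filled, IAA), and each line is the mean of 3. In the Wt panels all 3 IAA samples of the 8 tested genes lie below the 3 mock samples, and *ARR6* drops from a mean of 20.2 to 4.02 CPM.

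The first comparison asked how the family responded to IAA in Wt. Transcripts of all 8 tested members fell (8 of 8 past an adjusted p of 0.01 and 0 higher), against 4.74% of all genes lower, 4.92% higher and 9.66% changed in either direction. The mock and IAA samples did not overlap for any of the 8, which held for 35.4% of all genes. The median log2 fold change of the 8 was -1.22, and that of all genes 0.005. P-values came from the quasi-likelihood test of edgeR and were adjusted over all genes tested (Benjamini-Hochberg). They measure the spread between 3 repeated treatments of each line, for which no separate seed lots are stated.

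*ARR6*, a negative regulator of cytokinin signalling whose sister is the classical reporter gene *ARR5*, had the largest fall. Its level in Wt was 20.4, 20.9 and 19.4 CPM with mock and 4.49, 3.51 and 4.06 CPM with IAA. The mock samples were tightly grouped and far above every IAA sample, a 5.07-fold fall (log2 fold change -2.34, standard error 0.145, adjusted p = 9.81e-11). *ARR5*, known from reporter lines for its expression in the root cap and meristem, changed from 18.6, 20.6 and 16.2 CPM to 10.1, 7.52 and 8.56 CPM. The sister of *ARR6* thus fell by less, 2.13-fold (log2 fold change -1.09, standard error 0.196, adjusted p = 0.000328). The annotation places a protein-coding gene on the opposite strand overlapping *ARR6*, and whether reads were counted by strand is not given in the sources used here.

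*ARR3* and *ARR4*, a sister pair linked to the period of the circadian clock, also fell by unequal amounts. *ARR3* was at 14.3, 14.5 and 7.70 CPM in mock-treated Wt and at 4.21, 2.97 and 4.06 CPM after IAA. The third mock sample was low for *ARR3* but still above all IAA samples, and the fall was 3.26-fold (adjusted p = 1.76e-05). *ARR4* changed from 88.2, 99.3 and 89.7 CPM to 53.3, 48.0 and 48.5 CPM. As the most abundant member it lost the most CPM, although its fold was only 1.85 (log2 fold change -0.89, standard error 0.0804, adjusted p = 3.32e-08).

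*ARR7*, which acts in the shoot meristem and the embryonic root, was at 13, 13.8 and 10.3 CPM with mock and at 4.26, 4.36 and 4.98 CPM with IAA in Wt. All IAA samples were below 5 CPM, and the fall was 2.72-fold (log2 fold change -1.44, standard error 0.152, adjusted p = 3.32e-07). Its sister *ARR15* was too low to be tested, with 17, 23 and 27 reads in mock-treated Wt and 6, 4 and 6 after IAA. The reads of *ARR15* did not overlap between the treatments, and without the filter on low counts its log2 fold change was -1.80 (standard error 0.676, adjusted p = 0.0881).

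*ARR16*, which is expressed in leaves and the stomatal lineage, was at 15.0, 19.0 and 18.4 CPM with mock and at 6.02, 7.49 and 6.95 CPM with IAA in Wt. This was a 2.54-fold fall without overlap (log2 fold change -1.35, standard error 0.153, adjusted p = 8.97e-07). Its sister *ARR17* had at most 4 reads in any of the 18 samples and 0 in every IAA-treated Wt sample. No statement on *ARR17* can be made at this depth, as 0 reads in a library allow up to 3 by counting error alone.

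*ARR8* and *ARR9*, a sister pair known for weaker induction by cytokinin, had the smallest falls. *ARR8* was at 35.3, 31.9 and 31.1 CPM with mock and at 20.4, 21.2 and 22.1 CPM with IAA in Wt. *ARR9* was at 30.5, 34.8 and 33.4 CPM with mock and at 21.3, 22.8 and 23 CPM with IAA. Neither gene overlapped between treatments, and the falls were 1.54-fold for *ARR8* (adjusted p = 0.000249) and 1.47-fold for *ARR9* (adjusted p = 7.37e-05). Each of these genes overlaps an annotated long non-coding RNA on the opposite strand. For *ARR8*, 3.38% of its 50-base stretches have a second copy in the genome, from which unique reads cannot be counted, and the other 9 members have none.

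All 8 calls in Wt held under each alternative test, normalization and filter tried and in each fit without one of the samples. Without IAA replicate 2 of Wt, 8 of 8 were called and the log2 fold change of *ARR6* was -2.26. With the additional requirement of a log2 fold change of at least 1 in size, 5 of the 8 remained called. Of the marker lists, 3 of 12 root genes were lower, 2 of 12 higher and 1 of 8 photosynthesis genes lower with IAA in Wt, and their part in the result was not tested.

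The same comparison in *aff1-1* gave 6 of 8 tested members lower and 0 higher, against 1.71% of all genes lower, 3.16% higher and 4.87% in either direction. *ARR3*, *ARR4*, *ARR6*, *ARR7*, *ARR8* and *ARR16* fell, and the median log2 fold change of the 8 was -0.67 against -0.002 for all genes. The mock and IAA samples did not overlap for any of the 8 (23.7% of all genes). *ARR6* was at 11.6, 12 and 9.62 CPM with mock and at 5.15, 5.65 and 4.02 CPM with IAA. Its fall was 2.25-fold (log2 fold change -1.17, standard error 0.143, adjusted p = 5.48e-06), starting from a lower mock level than in Wt. *ARR3*, at 11.2, 14.1 and 11.1 CPM with mock and 3.40, 3.55 and 3.92 CPM with IAA, had a fold of 3.32 (adjusted p = 2.92e-05).

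*ARR5* did not pass the threshold in *aff1-1*, where its log2 fold change was -0.65 (standard error 0.201, adjusted p = 0.0507). Its mock samples were spread over 11, 16.9 and 9.96 CPM, and its IAA samples were at 7.02, 9.36 and 7.60 CPM. *ARR9*, with a log2 fold change of -0.27 (adjusted p = 0.0644), did not pass either. *ARR16* was at 17.7, 19.4 and 16.8 CPM with mock and at 10.3, 12.5 and 10.6 CPM with IAA, a log2 fold change of -0.69 (standard error 0.148, adjusted p = 0.00359). This call was less firm than the others, as it was kept in 2 of the 6 fits that leave out one of these samples, and the highest adjusted p among them was 0.0253, without IAA replicate 3. For *ARR4*, *ARR7* and *ARR8* the log2 fold changes were -0.60, -0.84 and -0.64.

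In *aff1-3*, 6 of 8 tested members were lower with IAA and 0 higher, against 1.97% of all genes lower, 2.98% higher and 4.95% in either direction. *ARR3*, *ARR4*, *ARR5*, *ARR6*, *ARR7* and *ARR16* fell, while *ARR8* (log2 fold change -0.31, adjusted p = 0.0981) and *ARR9* (-0.25, adjusted p = 0.102) did not pass the threshold. The median log2 fold change of the 8 was -0.79 against 0.004 for all genes, and no member overlapped between treatments (20.8% of all genes). *ARR6* was at 10.1, 8.95 and 9.38 CPM with mock and at 4.16, 3.34 and 3.40 CPM with IAA. All its IAA samples were below all mock samples, a 2.59-fold fall (log2 fold change -1.37, standard error 0.152, adjusted p = 1.31e-06).

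*ARR3* was at 15.6, 10.2 and 15.4 CPM with mock and at 7.71, 4.54 and 7.11 CPM with IAA in *aff1-3*, with the second sample lowest in both treatments. Its log2 fold change was -1.10 (standard error 0.232, adjusted p = 0.00312). *ARR5* was at 9.17, 10.8 and 11 CPM with mock and at 3.59, 4.78 and 7.03 CPM with IAA. These IAA samples differed among themselves by more than those of *ARR6*, and the log2 fold change of *ARR5* was -1.05 (standard error 0.216, adjusted p = 0.0024). For *ARR4*, *ARR7* and *ARR16* the log2 fold changes were -0.67, -0.80 and -0.77. The count in *aff1-3* rested on its samples more than that in Wt, since without IAA replicate 2 of *aff1-3* only 2 of 8 members were called. Without its mock replicate 2, 6 of 8 were called.

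**Figure D3:**
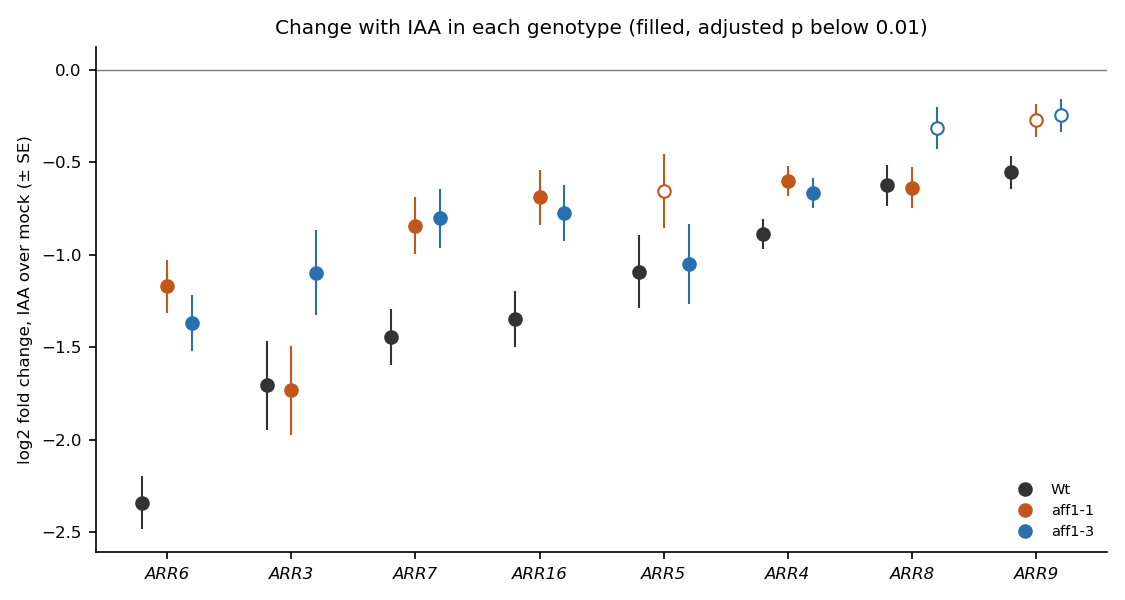
Change of the 8 tested type-A *ARR* transcripts with IAA in Wt, *aff1-1* and *aff1-3*. The y axis is the log2 fold change of IAA over mock, bars are standard errors, and filled points are past an adjusted p of 0.01 (edgeR's quasi-likelihood test). All 24 points lie below 0, and the Wt point of *ARR6*, at -2.34, is the lowest.

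The levels in mock-treated mutants and Wt were compared next, to see where the family stood before IAA was added. In *aff1-1*, 2 of 8 tested members were lower and 0 higher, against 1.62% of all genes lower, 2.96% higher and 4.58% in either direction. In *aff1-3*, 4 of 8 were lower and 0 higher, against 2.70% of all genes lower, 4.08% higher and 6.78% in either direction. The median log2 differences from Wt were -0.30 in *aff1-1* and -0.37 in *aff1-3*, with -0.001 and -0.0004 for all genes. Both comparisons use the same 3 Wt samples. Without mock replicate 2 of *aff1-3*, 2 of 8 members were called in that line, *ARR6* and *ARR7*.

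*ARR6* was lower in both lines. In *aff1-1* its log2 difference was -0.87 (standard error 0.133, adjusted p = 0.000187), and that in *aff1-3* was -1.09 with the same standard error (adjusted p = 8.78e-06; without mock replicate 2, -1.05 and 5.43e-05). Its mean level was 20.2 ± 0.763 CPM in Wt (SD, n = 3), 11.1 ± 1.28 CPM in *aff1-1* and 9.46 ± 0.562 CPM in *aff1-3*. Neither line overlapped Wt, and of all genes 26.5% did not overlap in *aff1-1* and 24.7% in *aff1-3*. *ARR7* was at 8.09, 9.07 and 6.91 CPM in *aff1-1* and at 7.93, 6.31 and 7.22 CPM in *aff1-3*. All 6 of these samples were below the lowest Wt sample of *ARR7* at 10.3 CPM. The log2 difference was -0.63 for *aff1-1* (adjusted p = 0.00804), and for *aff1-3* it reached -0.78 (adjusted p = 0.000853; without mock replicate 2, -0.70 and 0.00559). The *ARR7* call in *aff1-1* was kept in 2 of 6 fits that leave out one of the samples compared, with a highest adjusted p of 0.0648 without mock replicate 3 of *aff1-1*.

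*ARR5* and *ARR4* passed the threshold in *aff1-3* but not in *aff1-1*, with log2 differences of -0.84 (adjusted p = 0.00537) and -0.33 (adjusted p = 0.00792). In *aff1-1* their values were -0.56 (adjusted p = 0.0714) and -0.30 (adjusted p = 0.0191). Neither gene passed the threshold between the 2 mutant lines (log2 differences -0.28 and -0.03, standard errors 0.197 and 0.0798, adjusted p = 0.657 and 0.936). Equal levels in the 2 lines were not shown by this. Of the 6 fits that leave out one of the samples compared, 1 kept the *ARR5* call in *aff1-3* and 0 kept the *ARR4* call, with adjusted p up to 0.0263 and 0.0436, both without mock replicate 2 of Wt. Without mock replicate 2 of *aff1-3* the adjusted p was 0.0114 for *ARR5* and 0.0293 for *ARR4*. With the replicate block the *ARR4* call in *aff1-3* was also lost (adjusted p = 0.0104). *ARR3*, *ARR16*, *ARR8* and *ARR9* passed in neither line. *ARR3* had log2 differences of -0.0004 in *aff1-1* and 0.19 in *aff1-3*, and *ARR16* of 0.04 and -0.07. For *ARR8* the values were -0.29 and -0.40, and for *ARR9* -0.12 and -0.18.

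Some of the 12 root genes also differed with mock. In *aff1-1*, 2 of the 12 were lower and 10 did not pass, the lower ones being *PYK10* (-0.49), a root beta-glucosidase, and *EXPA18* (-0.52), a root hair expansin. Both were also lower in *aff1-3* (-0.74 and -0.69), where the root stem cell gene *WOX5* was higher (0.63) and 9 did not pass. Of the 8 photosynthesis genes, 1 was lower in each line and 7 did not pass. The lower one was *LHCB2.1* in both (-0.50 in *aff1-1* and -0.44 in *aff1-3*). The summed levels are given above, and the part of these root and photosynthesis genes in the lower *ARR6* and *ARR7* levels was not tested.

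The levels of the mutants and Wt were then compared with IAA. In *aff1-1*, 1 of 8 tested members was higher and 0 lower, against 4.46% of all genes higher, 1.71% lower and 6.17% in either direction. This was *ARR16*, at 10.3, 12.5 and 10.6 CPM in *aff1-1* and 6.02, 7.49 and 6.95 CPM in Wt (log2 difference 0.69, standard error 0.155, adjusted p = 0.00467). The samples did not overlap, which held for 39.2% of all genes. The call was kept in 2 of 6 fits with one of these samples left out. Its adjusted p was 0.0312 without IAA replicate 1 of Wt. Without IAA replicate 2 of Wt it was 0.00969. In the same comparison 2 of 8 photosynthesis genes were higher, *RBCS2B* (0.32) and *RBCS3B* (0.34). Of the 12 root genes, *EXPA7* (-0.67) and *EXPA18* (-0.44) were lower and *NRT2.1* (0.44) was higher. Their part in the *ARR16* difference was not tested. In *aff1-3*, 0 of 8 were called by edgeR, with 4.72% of all genes called in either direction, and 3 of 8 had an unadjusted p below 0.05 (21.3% of all genes). DESeq2 and limma each called 1, *ARR5*, and of all 19383 genes they called 1288 and 1387.

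*ARR16* was at 9.57, 8.42 and 11.4 CPM in IAA-treated *aff1-3*, above all Wt samples, and 29.7% of all genes did not overlap. Its log2 difference of 0.50 did not pass the threshold (adjusted p = 0.0543). In the same comparison *ARR5* had a log2 value of -0.80 (standard error 0.219, adjusted p = 0.0238). *ARR3* had one of 0.80, in the opposite direction (standard error 0.253, adjusted p = 0.0517). Without IAA replicate 2 of Wt the edgeR adjusted p was 0.0662 for *ARR16*, 0.0323 for *ARR5* and 0.211 for *ARR3*. *ARR6*, at 4.02 ± 0.493 CPM in Wt, 4.94 ± 0.836 CPM in *aff1-1* and 3.63 ± 0.456 CPM in *aff1-3* (SD, n = 3), overlapped between Wt and each mutant. Its log2 differences with IAA were 0.30 (adjusted p = 0.205) and -0.12 (adjusted p = 0.737). *ARR7*, the other member lower in both mock-treated lines, had differences of -0.03 and -0.14.

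**Figure D4:**
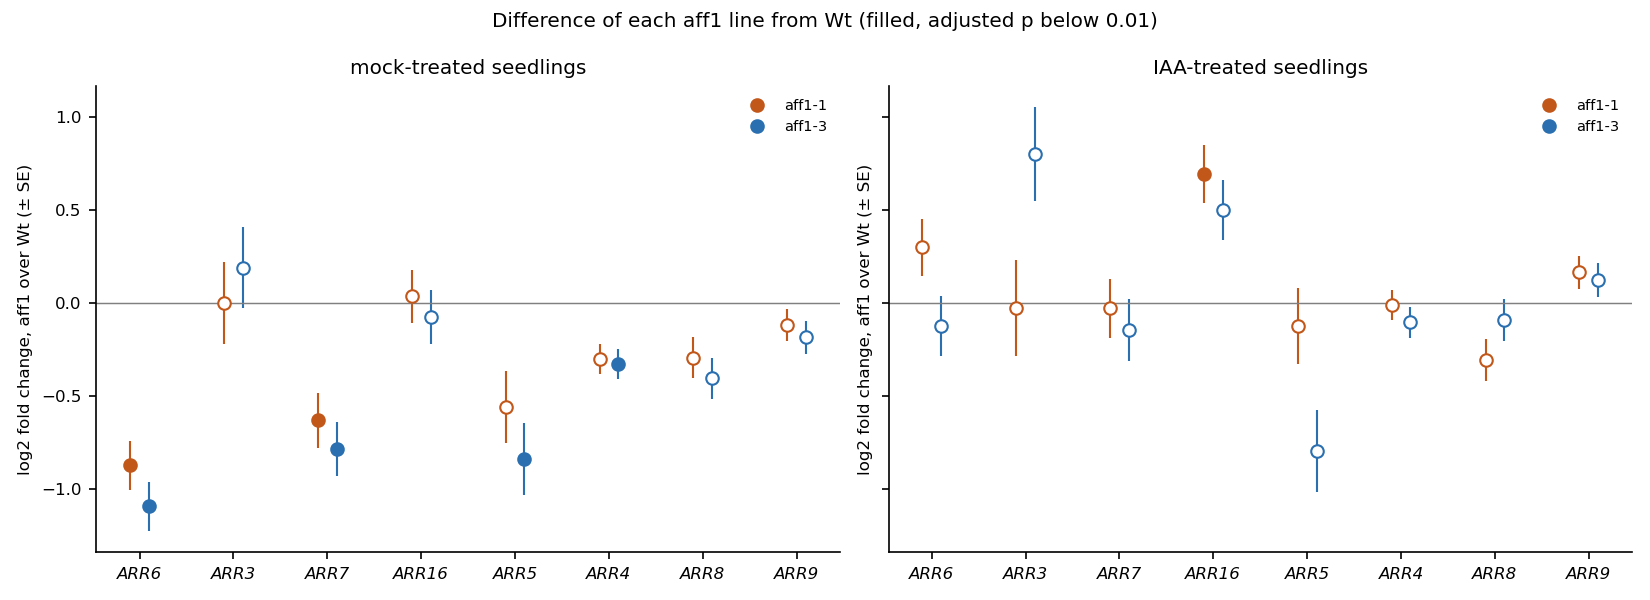
Difference of *aff1-1* and *aff1-3* from Wt for the 8 tested type-A *ARR* transcripts, with mock (left) and with IAA (right). The y axis is the log2 fold change of mutant over Wt, bars are standard errors, and filled points are past an adjusted p of 0.01. With mock 6 points are filled, all below 0, and with IAA 1 point, *ARR16* in *aff1-1* at 0.69.

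Whether the response to IAA itself differed from Wt was tested with the interaction of genotype and treatment. By edgeR 0 of 8 members passed in *aff1-1* and 0 of 8 in *aff1-3*, and of all genes 0.0722% and 0.0877% did. At an unadjusted p below 0.05 there were 5 of 8 members in *aff1-1* and 4 of 8 in *aff1-3*, against 12.2% and 10.5% of all genes. A positive interaction here means a smaller fall in the mutant. The sign was positive for 6 of 8 members in *aff1-1* and 8 of 8 in *aff1-3*, and for 9821 and 9934 of all 19383 genes. The medians of the members were 0.36 and 0.44 against 0.004 and 0.008 for all genes. Both interactions use the same Wt samples.

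*ARR6* came closest, with an interaction of 1.17 for *aff1-1* (standard error 0.202, adjusted p = 0.0124). For *aff1-3* the *ARR6* interaction was 0.97 (standard error 0.21, adjusted p = 0.039). Without IAA replicate 2 of Wt the adjusted p values were 0.0422 and 0.117, and for *aff1-3* without its mock replicate 2 the value was 0.0727. Whether *ARR6* passed depended on the method. In *aff1-1* the adjusted p was 7.76e-05 with DESeq2 and 0.00479 with limma, and over the 10 alternatives it ranged from 7.76e-05 to 0.0296. In *aff1-3* it was 0.00385 with DESeq2 and 0.0644 with limma, the lowest and highest of its alternatives. *ARR16* and *ARR7* followed, with interactions of 0.66 and 0.60 in *aff1-1* (adjusted p = 0.225 and 0.286), the values for *aff1-3* being 0.57 and 0.64 (adjusted p = 0.312 and 0.254). *ARR3* had values of -0.03 in *aff1-1* and 0.61 in *aff1-3*, with standard errors of 0.339 and 0.333. By edgeR a smaller response to IAA was therefore not shown for any member, and for *ARR6* it depended on the method. An equal response was not shown either.

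The 2 mutant lines did not differ in any member past the threshold. With mock 0 of 8 were called by edgeR, limma and DESeq2, with 0.139% of all genes called and 0 of 8 members at an unadjusted p below 0.05 (10.3% of all genes). With IAA 0 of 8 were called by these 3 tools, with 0.181% of all genes called and 3 of 8 members at an unadjusted p below 0.05 (12.3% of all genes). The largest of these was *ARR3*, higher in *aff1-3* by 0.82 (standard error 0.251, adjusted p = 0.173).

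The other genes of the cytokinin pathway were followed in Wt to place the family in its context. With IAA in Wt 9.66% of all genes passed the threshold by edgeR. Of 3 receptors 0 passed the threshold with edgeR, limma or DESeq2 in Wt (1 at an unadjusted p below 0.05, as 27.8% of all genes). Their log2 fold changes by edgeR were -0.61 for the root receptor *AHK4* (adjusted p = 0.0852), -0.15 for *AHK2* (0.755) and 0.17 for *AHK3* (0.665). Of 6 AHPs 5 were tested and 1 fell, *AHP1*, from 210 ± 26.2 to 146 ± 3.88 CPM (SD, n = 3; adjusted p = 0.00116). Of 11 type-B *ARRs*, the activators of the type-A genes, 6 were tested and 0 passed with any of these tools (2 at an unadjusted p below 0.05), with a median log2 fold change of 0.06. The lowest adjusted p among them was that of *ARR14*, named after its value was seen (log2 fold change -0.62, adjusted p = 0.0249). Both type-C *ARRs* were below the filter.

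*CYTOKININ RESPONSE FACTORs*, which encode AP2-type transcription factors, went both ways. Of 6, 2 rose and 1 fell with IAA in Wt. *CRF3* rose from 14.1 ± 1.97 to 61.2 ± 0.765 CPM (SD, n = 3; adjusted p = 2.38e-12) and *CRF2* from 17.7 ± 1.92 to 34.0 ± 3.76 CPM (adjusted p = 6.09e-07). *CRF6* fell from 8.86 ± 0.333 to 5.59 ± 0.479 CPM (adjusted p = 0.00945). The transcripts for hormone turnover also moved in both directions.

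Of 9 isopentenyltransferase genes, which carry out the first step of synthesis, 6 were tested and 1 fell, *IPT3* (log2 fold change -0.75, adjusted p = 0.000374). Among 10 genes for hydroxylation and activation, 8 were tested, 3 rose and 1 fell. *CYP735A2*, a hydroxylase needed for trans-zeatin, fell from 4.39 ± 0.109 CPM to 0.182 ± 0.158 CPM (SD, n = 3; adjusted p = 3.13e-07), close to the lower limit of counting. The activating enzymes *LOG3* and *LOG5* rose by 1.82 and 1.00 on the log2 scale (adjusted p = 2.99e-06 and 0.00065). Of 5 genes for glucosylation and transport 2 fell, the root-to-shoot exporter *ABCG14* (log2 fold change -1.64, adjusted p = 9.55e-07) and the glucosyltransferase *UGT76C2* (-0.67, adjusted p = 1.86e-05).

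Cytokinin oxidases, which degrade the hormone, were the list with the most rises. Of 7, 6 were tested, 4 rose and 1 fell in Wt, with a median log2 fold change of 1.35. *CKX6* rose from 3.56 ± 0.558 to 14.0 ± 0.954 CPM (SD, n = 3; adjusted p = 4e-09). *CKX1* and *CKX3* rose by 2.05 and 1.86 on the log2 scale (adjusted p = 1.67e-06 and 4.93e-06). *CKX4*, named after its value was seen, fell from 1.07 ± 0.185 to 0.109 ± 0.0199 CPM (SD, n = 3; adjusted p = 2.09e-05), so the family was not uniform. In *aff1-1* 3 of 6 rose and 0 fell, against 3.16% of all genes higher and 1.71% lower. In *aff1-3* 2 of 6 rose and 0 fell, against 2.98% higher and 1.97% lower. DESeq2 called 4 of 6 in *aff1-3* in either direction, and 1235 of all 19383 genes.

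**Figure D5:**
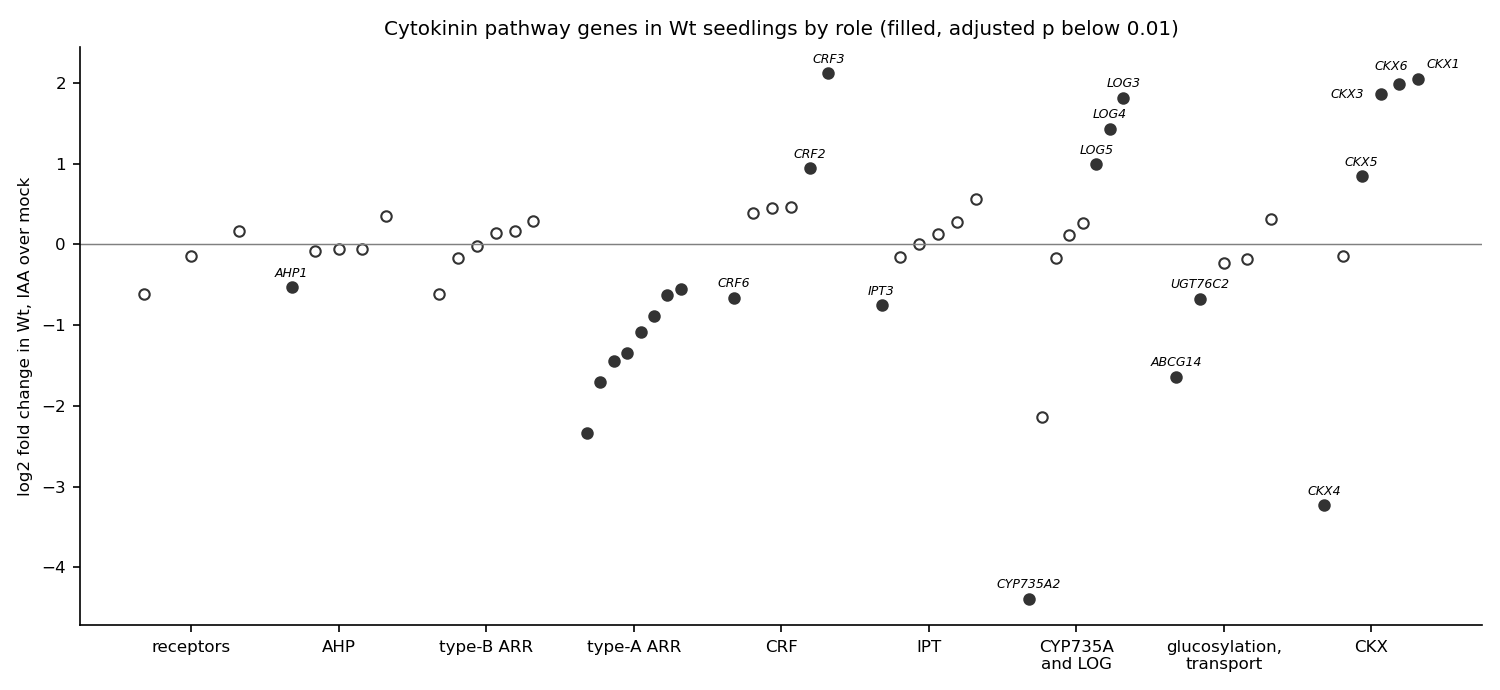
Log2 fold change of IAA over mock in Wt for the tested genes of the cytokinin pathway, by role. Each point is a gene, the y axis is the log2 fold change, filled points are past an adjusted p of 0.01, and genes past it outside the type-A group are named. The type-A *ARR* column has all 8 points filled and below 0. The 6 type-B *ARRs* and 3 receptors have no filled point, and 9.66% of all genes passed the threshold.

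The same lists were compared between mock-treated mutants and Wt, where edgeR called 4.58% of all genes in *aff1-1* and 6.78% in *aff1-3*. In both lines 0 of the tested receptors, AHPs, type-B *ARRs*, *CRFs*, *IPTs* and *CKXs* passed the threshold by edgeR and by limma, while DESeq2 called 1 AHP in each line and 1 *CKX* in *aff1-3*. At an unadjusted p below 0.05 there were 1, 1, 0, 2, 0 and 1 of them in *aff1-1* and 0, 2, 0, 3, 0 and 3 in *aff1-3*. Among hydroxylation and activation genes 1 of 8 was higher in each line, *LOG7* (0.46 in *aff1-1* and 0.63 in *aff1-3*, adjusted p = 0.00211 and 5.15e-05). Among genes for glucosylation and transport 1 of 5 was higher in each, *UGT85A1*, an enzyme that glucosylates zeatin (0.65 and 0.73, adjusted p = 2.23e-05 and 2.82e-06). In this list 4 of 5 in *aff1-1* and 5 of 5 in *aff1-3* had an unadjusted p below 0.05 (23% and 25.6% of all genes), and DESeq2 called 2 in *aff1-3*. *LOG7* and *UGT85A1* were named after their values were seen. By edgeR 0 of 10 circadian clock genes were called with IAA in any genotype. Of all genes 9.66%, 4.87% and 4.95% were called in Wt, *aff1-1* and *aff1-3*. At an unadjusted p below 0.05 there were 1, 2 and 0 clock genes, against 27.8%, 18.5% and 20% of all genes. With such shares 0 of 10 cannot serve as a check on sampling time. With IAA limma called 1 clock gene in Wt and DESeq2 0, and 1, *TOC1*, was higher in mock-treated *aff1-1*. In mock-treated *aff1-3* edgeR called 0 clock genes (3 at an unadjusted p below 0.05), and limma and DESeq2 called 1 each.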

How the data were processed

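RNA-seq libraries of 18 samples were used, 3 per group. The authors deposited raw counts per gene of uniquely aligned, unambiguous reads (STAR and featureCounts, TAIR10), without normalization. Kits named for the libraries differ between the labels and the methods, and strandedness is not given. The 4 nuclear ribosomal RNA genes were left out, and a gene was kept where 2 or more samples of any group exceeded 1 CPM.

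Counts were tested with edgeR 4.0.16 (quasi-likelihood, TMM, 6 group means, all samples; R 4.3.3), with a Benjamini-Hochberg adjusted p below 0.01 over 19383 genes. CPM and RPKM used TMM-scaled library sizes, and RPKM used exon lengths of TAIR10.1, which can differ from the gene models counted. Total counts were 12610301 to 36102396 per sample. A count of 0 allows up to 3, for counting error only. Upstream windows were cut from TAIR10.1 at the annotated gene start. Alternatives were limma 3.58.1 with sample weights, DESeq2 1.42.0, other scalings, filters, thresholds and samples, a replicate block, thinned counts and each sample left out. The tests were also run on simulated counts with the same relative spread for every gene and changes only in IAA-treated Wt. A requirement on recovery was set only for edgeR with IAA in Wt, so the other comparisons and tools were not checked by it.

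The members and gene lists were chosen with earlier results of these data known. Named are all members, up to 3 genes per pathway list with the smallest adjusted p among those past the threshold with IAA in Wt, and the genes whose group means are most like those of a member. The photosynthesis, root and clock genes named, and pathway genes outside this rule, were named after their values were seen.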

Additional observations from a re-analysis of the deposited data

How the results depend on the processing

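The 8 calls with IAA in Wt were kept under all alternatives but one, and leaving out each of the 18 samples in turn left 8. Requiring a log2 fold change of at least 1 in size gave 5 calls with IAA in Wt, 2 in *aff1-1* and 3 in *aff1-3*, and for the mutants against Wt 0 in *aff1-1* and 1 in *aff1-3* with mock and 0 in *aff1-1* with IAA. Fitting only the groups compared gave 3 with IAA in *aff1-3*, and 1 in *aff1-1* and 2 in *aff1-3* with mock. Thinning to the smallest library gave 1 in *aff1-1* with mock. With limma there were 2 in *aff1-1* and 1 in *aff1-3* against Wt with IAA and 1 in the *aff1-1* interaction. DESeq2 and a threshold of 0.05 each gave 1 in *aff1-3* against Wt with IAA and 1 in each interaction, and dropping the low-count filter gave 1 in the *aff1-1* interaction. The causes were not tested.

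With one sample left out, the calls with IAA were 5 to 6 in *aff1-1* and 2 to 6 in *aff1-3*. Against Wt with mock they were 1 to 3 in *aff1-1* and 2 to 4 in *aff1-3*, and with IAA 0 to 1 in each. In the interactions they were 0 to 1 in *aff1-1* and 0 in *aff1-3*, and between the mutants 0. Where a sample left out left 2 in a group, the spread was taken from all groups.

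Replicate numbers did not pair the samples, since of 45 pairs with a shared number only 8 had deviations correlated above 0.1 (r from -0.283 to 0.261) and 17 matched their own number best. With the replicate block, 1 member (*ARR6*, adjusted p = 0.00838) was called in the *aff1-1* interaction and 3 in *aff1-3* against Wt with mock (without *ARR4*), and the other counts were as without it. Over all genes, the *aff1-1* interaction had 14 calls (48 with limma, 94 with DESeq2, 37 without the filter, 29 with only the groups compared, 22 with the block) and the *aff1-3* interaction 17 (11 with limma, 117 with DESeq2, 43 without the filter). With IAA, *aff1-1* against Wt had 1196 (2948 with limma, 1818 with DESeq2, 2371 with only the groups compared) and *aff1-3* 915 (1387 with limma). Fitting only the groups compared gave 559 in place of 959 for IAA in *aff1-3* and 612 in place of 1314 for *aff1-3* with mock. Between the mutants there were 27 with mock (61 with DESeq2, 9 with only the groups compared) and 35 with IAA (107 with DESeq2, 55 without the filter).

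Of 2640 single-gene values under alternatives, 45 changed sign, and 0 of these were past the threshold in either fit. Against Wt with mock, *ARR3* in *aff1-1* was 0.17 with limma, 0.0074 with the replicate block and 0.0027 without organelle genes, and *ARR16* in *aff1-3* was 0.0043 with limma. With IAA, *ARR3* in *aff1-1* was 0.033 with limma, and after thinning *ARR7* in *aff1-1* was 0.018 and *ARR6* in *aff1-3* 0.0037. In the interactions, *ARR8* in *aff1-1* was 0.027 after thinning, and *ARR5* in *aff1-3* was -0.017 after thinning and -0.049 with limma. With one sample left out, the mock differences from Wt ran from -0.25 to 0.15 for *ARR3* and -0.059 to 0.097 for *ARR16* in *aff1-1*, and from -0.064 to 0.36 and -0.19 to 0.083 in *aff1-3*. The IAA differences in *aff1-1* ran from -0.18 to 0.059 for *ARR3*, -0.032 to 0.037 for *ARR4* and -0.13 to 0.042 for *ARR7*. Interactions ran from -0.18 to 0.23 for *ARR3* and -0.10 to 0.099 for *ARR8* in *aff1-1*, and from -0.21 to 0.26 for *ARR5* in *aff1-3*. Between the mutants, *ARR4* ran from -0.087 to 0.014 and *ARR16* from -0.22 to 0.048 with mock, and *ARR9* from -0.082 to 0.0079 with IAA. With limma and with DESeq2, 1 of 3 receptors passed with IAA in *aff1-1*, against 0 with edgeR. *ARR15* and *ARR17* are limited by depth, with at most 27 and 4 reads.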

Other observations

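Similarity of pattern was measured as the root mean square difference between the 6 group means of log2 CPM (prior count 2), each gene centred on its own mean, over tested genes with a mean of at least 1 CPM. This is a description over 6 group means and carries no test. For *ARR6* the nearest genes were AT3G44326 (0.118), *MYB34* (0.133), a regulator of indole glucosinolate synthesis, and AT3G45070 (0.145). For *ARR16* they were AT2G01900 (0.0586), *SOT18* (0.0714), a sulfotransferase of glucosinolate synthesis, and *CSLA14* (0.0787). For *ARR4* they were AT5G45650 (0.0468), *SOT17* (0.0532), another sulfotransferase of glucosinolate synthesis, and *PIP2B* (0.0562), an aquaporin.

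Those nearest to *ARR7* were AT4G22666 (0.0549), AT4G11320 (0.0628) and *scpl1* (0.0706), and to *ARR8* *GXMT1* (0.0369), *MAP70-5* (0.0411) and *CGA1* (0.0523), a GATA factor that is itself induced by cytokinin. For *ARR9* the nearest were AT2G28200 (0.0225), *GGH2* (0.0309) and *OMT1* (0.0326), for *ARR5* AT3G47210 (0.117), AT5G65040 (0.137) and AT3G62270 (0.144), and for *ARR3* AT4G12520 (0.144), AT4G12510 (0.171) and AT5G14090 (0.218). Within the family, *ARR4* and *ARR8* were nearest to each other (0.143). Only for *ARR9* was the nearest member its sister, *ARR8* (0.175), and the group means of *ARR9* themselves spread by 0.192 about their mean. For *ARR3*, *ARR4*, *ARR5*, *ARR6* and *ARR8* the nearest member was not the sister gene. The sisters of *ARR7* and *ARR16*, *ARR15* and *ARR17*, were below the filter and could not be compared. *ARR3* lay farthest from any other member, at 0.416 from *ARR16*, with a spread of its own group means of 0.785.

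*ARR15* was uneven among the mock-treated *aff1-3* samples, with 19, 1 and 20 reads, while the 3 mock-treated *aff1-1* samples had 11, 12 and 5. After IAA it had 1, 1 and 5 reads in *aff1-1* and 8, 5 and 0 in *aff1-3*. *ARR17* had 0, 2 and 4 reads in IAA-treated *aff1-1* and 0 in all 3 samples of IAA-treated *aff1-3*.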
